A study of Homo sapiens
Mus musculus and Homo sapiens with 21 samples.

Results

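The comparison described here sets cancer cells that had grown in mouse brain against cells of the same line kept as a monolayer in culture. Libraries were chosen by their GEO titles: 3 from forebrain metastases, 3 from hindbrain metastases and 3 from the monolayer, 9 of the 21 libraries of the series. All of them hold H2030-BrM3 cells, a derivative of the human lung adenocarcinoma line H2030 selected for growth in brain, so every value is for 1 cell line. Metastases arose in athymic nu/nu mice, 5 to 6 weeks old, after the cells had been injected into the heart. Brain regions with tumour were dissected by eye together with the stroma around them and frozen, and total RNA was taken from the whole tissue. Monolayer cells were left undisturbed for at least 3 days before harvest. Subcutaneous tumours (4 libraries), grown from the same cells injected under the skin with Matrigel in mice of the same strain and age, entered the fit and give a second tumour site. Tumour-free forebrain and hindbrain (4 libraries each) served only to show how many human-assigned reads mouse RNA yields. The animals lack T cells because they have no thymus, and no healthy lung or other cell line is part of the comparison.

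Cells in a monolayer grow on stiff plastic in medium rich in nutrients and serum, whereas cells in brain live among neurons, glia and vessels, take up nutrients from blood and interstitial fluid, and are packed against each other. Lung adenocarcinoma is an epithelial cancer, and brain is among the organs to which it spreads most often. Genes of cell adhesion, of metabolism and of signalling between cells are known to respond to such surroundings.

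RNA of human and mouse was told apart by mapping. Metastasis libraries held 3579907 to 6897852 human reads, which were 4.83 to 7.52% of their reads, and monolayer libraries held 29579879 to 49599168. Values of low genes are therefore less precise in metastases. Tumour-free brain gave 3325 to 5753 human-assigned reads a library. Scaled up to the mouse reads of the metastases, that rate makes 0.307% of the human reads of metastases (27122953 in all). The share was 25% or more in 137 of 14557 genes tested. Because the rate comes from brain without tumour, it understates reads of mouse genes that are higher around a tumour. Levels below are the authors' RPKM, reads scaled to transcript length and to library size, rescaled so that each library sums to 1000000 over human genes. The 3 values in a row belong to replicates 1, 2 and 3 of a group. Changes are log2 differences with their standard error, estimated on log2(level + 1), which understates the change of genes with low levels. A gene was called changed at a limma p, adjusted over all genes tested, under 0.05.

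KRT8 and KRT18, the keratin pair of simple epithelia, were found in both groups and were abundant in brain. Other epithelial markers were uneven. CDH1 was at only 0.807 to 0.976 in the monolayer, and KRT19 was too low to be tested. In metastases KRT7 was lower (log2 change -0.78) and EPCAM higher (log2 change 1.08) than in the monolayer. The level of KRT8 was 975 to 1419 in metastases against 158 to 174 in the monolayer. That of KRT18 was 527 to 724 in metastases against 161 to 180.4 in the monolayer. Of the lung lineage, the transcription factor gene NKX2-1 and the surfactant genes SFTPA1, SFTPA2, SFTPC and SFTPD were too low to be tested in either group. NAPSA, the napsin gene of lung adenocarcinoma, was low in both groups, at 0.63 ± 0.33 in metastases against 0.55 ± 0.072 in the monolayer (adjusted p = 0.877). The transcription factor genes FOXA1 (log2 change 0.27 ± 0.08, adjusted p = 0.0132) and SOX2 (log2 change 1.84 ± 0.16, adjusted p = 6.72e-07) rose, and SOX9 fell (log2 change -1.27 ± 0.17, adjusted p = 3.8e-05). The call of FOXA1 was lost without monolayer replicate 2 (adjusted p = 0.0837); these 4 genes were named after their values were seen. In bulk libraries fewer cells of a type and less RNA per cell cannot be told apart, and a level is a mean over all cancer cells of a region.

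Across the transcriptome 3192 genes (21.9% of those tested) were higher and 3055 (21.0%) were lower in metastases than in the monolayer. Most changes were small: 5% of genes lay below -0.79 and 5% above 0.78 on the log2 scale, around a median of 0.0066. At least 2-fold changes were called for 438 higher (3.01%) and 372 lower genes (2.56%), and at least 4-fold changes for 125 higher (0.859%) and 29 lower genes (0.199%). Of the protein-coding genes tested, 47.6% were called, against 25.5% of long non-coding RNA genes. Counts over gene lists given below are to be read beside these shares. Forebrain metastases alone gave 5568 calls (38.2%) and hindbrain metastases alone 5460 (37.5%), both against the same monolayer libraries. The balance of higher and lower calls turned with median-of-ratios scaling (2903 and 3380), with quantile normalization (3005 and 3280) and with no filter on low values (2765 and 3402).

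**Figure D1:**
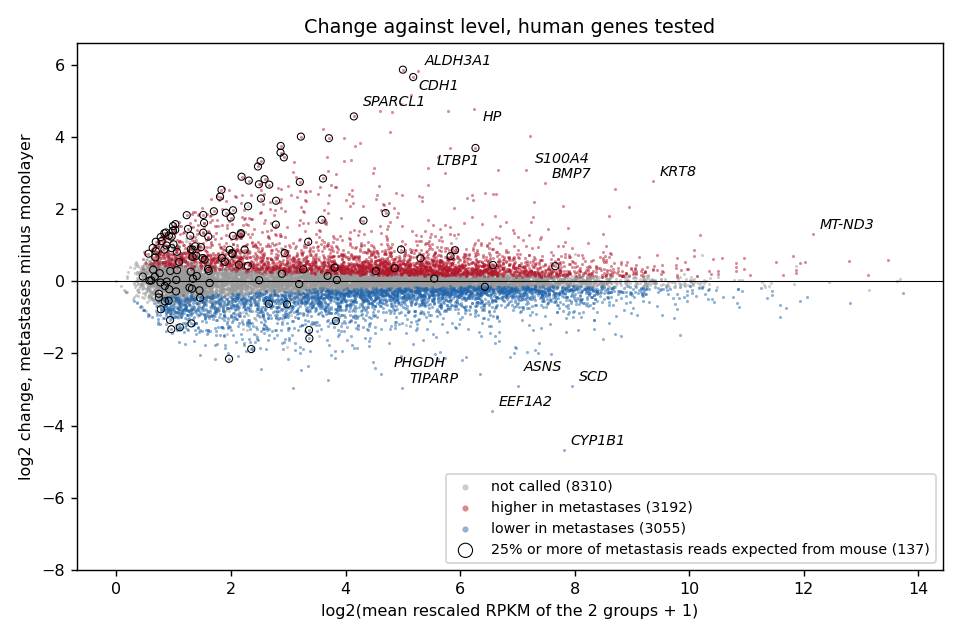
Each point is 1 of 14557 human genes tested, with the mean level of metastases and monolayer on the horizontal axis (log2 of the rescaled RPKM + 1) and the log2 change, metastases minus monolayer, on the vertical axis. Red points were called higher (3192), blue points lower (3055), and open circles mark the 137 genes of which 25% or more of the metastasis reads are expected from mouse RNA, most of them at low levels and above 0.

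Among genes for which mouse RNA could give under 10% of the reads, the largest increase on this scale was that of ALDH3A1 (ENSG00000108602.17, chromosome 17, 19737984 to 19748943 on GRCh38), an aldehyde dehydrogenase that clears reactive aldehydes. Its level was 64.6, 78.1 and 73.4 in forebrain metastases and 92.1, 84.1 and 55.4 in hindbrain metastases, against 0.22, 0.242 and 0.445 in the monolayer (log2 change 5.84 ± 0.19, adjusted p = 3.74e-11). The gene was barely detected in culture, and forebrain and hindbrain overlapped. Next on this scale came CDH1 (ENSG00000039068.18, chromosome 16, 68737292 to 68835537 on GRCh38), which encodes E-cadherin, the adhesion protein of epithelial junctions. It stood at 69.1, 73.8 and 60.1 in forebrain metastases and 74.4, 64.6 and 63.6 in hindbrain metastases, against 0.807, 0.976 and 0.92 in the monolayer (log2 change 5.17 ± 0.15, adjusted p = 1.52e-11). The 6 metastases lay close together and far above the 3 cultures, in which the gene was nearly silent. SNED1, an extracellular matrix gene, had 50.5, 97.5 and 58.7 in forebrain metastases and 51.8, 54.7 and 43 in hindbrain metastases, against 0.836, 1.22 and 0.792 in the monolayer (log2 change 4.91 ± 0.18, adjusted p = 1.44e-10). HP (ENSG00000257017.8, chromosome 16, 72054505 to 72061055 on GRCh38), for haptoglobin, which scavenges haemoglobin, had 79.6, 70.5 and 86.9 in forebrain metastases and 194, 238 and 205 in hindbrain metastases, against 3.6, 3.66 and 3.87 in the monolayer (log2 change 4.79 ± 0.15, adjusted p = 2.48e-11). Here the hindbrain values were all above the forebrain values. SPARCL1, a secreted matricellular protein, was at 82.3 to 123 in metastases against 2.7 to 3.25 in the monolayer. SPNS2, which exports sphingosine-1-phosphate, was at 11.8 to 112 in metastases against 0.342 to 0.418 in the monolayer. Of these 6 genes SPNS2 varied most among metastases, and all of them were above the cultures. Their order depends on the pseudocount: with 5 in place of 1, HP (3.95) passed ALDH3A1 (3.89) and CDH1 was at 3.62, and with 0.1 the log2 changes were 7.56 for ALDH3A1, 6.17 for SPNS2, 6.15 for CEMIP and 6.08 for CDH1.

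Proteins of the cell surface and its surroundings were among the further large increases, given here as log2 changes. CHL1, an adhesion protein of neural cells, rose by 4.70 ± 0.17 (adjusted p = 1.01e-10). CEMIP, which takes part in the breakdown of hyaluronan, rose by 4.23 ± 0.17 (adjusted p = 2.83e-10). The syndecan gene SDC2 rose by 4.14 ± 0.19 (adjusted p = 1.05e-09), and the proteoglycan gene SPOCK1 by 3.69 ± 0.25 (adjusted p = 1.87e-07). ENTPD2, an ectonucleotidase, rose by 3.46 ± 0.17 (adjusted p = 1.97e-09), and the BMP family ligand GDF6 by 3.74 ± 0.14 (adjusted p = 1.61e-10). Calcium signalling was represented by the kinase gene CAMK4 (3.85 ± 0.16, adjusted p = 3.28e-10). CAMK2N1, an inhibitor of the kinase CaMKII, rose by 3.97 ± 0.15 (adjusted p = 1.61e-10). FAM83A rose by 4.03 ± 0.12 (adjusted p = 2.06e-11). All 15 genes of the largest increases had each metastasis above each monolayer library, which the choice of these genes required and 19.5% of all genes tested did.

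The largest decrease was that of CYP1B1 (ENSG00000138061.11, chromosome 2, 38066973 to 38109902 on GRCh38), a cytochrome P450 that oxidises steroids and polycyclic hydrocarbons. It had 18.1, 20.2 and 17.3 in forebrain metastases and 13.6, 13.6 and 13.4 in hindbrain metastases, against 442, 419.8 and 429.6 in the monolayer (log2 change -4.68 ± 0.09, adjusted p = 4.38e-13) and was far below the cultures in every metastasis, lowest in hindbrain. EEF1A2, a tissue-restricted translation elongation factor, had 21.5, 8.69 and 13.4 in forebrain metastases and 12.5, 9.74 and 17.5 in hindbrain metastases, against 171, 176 and 169.6 in the monolayer (log2 change -3.60 ± 0.22, adjusted p = 6.29e-08). Metastases differed among themselves and stayed below every culture. TIPARP (ENSG00000163659.12, chromosome 3, 156673235 to 156706770 on GRCh38), a poly(ADP-ribose) polymerase, had 6.32, 4.59 and 6.96 in forebrain metastases and 7.72, 5.63 and 6.71 in hindbrain metastases, against 56.3, 54.9 and 54.5 in the monolayer (log2 change -2.96 ± 0.23, adjusted p = 2.59e-07). SCD (ENSG00000099194.5, chromosome 10, 100347233 to 100364826 on GRCh38), the desaturase that makes monounsaturated fatty acids, had 49.9, 46.5 and 56.8 in forebrain metastases and 60.1, 60.6 and 75.9 in hindbrain metastases, against 439, 432 and 436 in the monolayer (log2 change -2.90 ± 0.10, adjusted p = 6.99e-11). For both genes the groups were far apart, and the metastases lay close together. Every metastasis was below every culture for 19.1% of all genes tested.

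The other large decreases, also on the log2 scale, came from various families. PRSS12, the protease neurotrypsin, changed by -2.95 ± 0.28 (adjusted p = 1.56e-06), with levels of 0 to 2.13 in metastases against 13.2 to 14.1 in the monolayer. CLMN changed by -2.91 ± 0.12 (adjusted p = 2.83e-10), and the antisense RNA MSC-AS1 by -2.74 ± 0.30 (adjusted p = 5.64e-06). F2RL2, a protease-activated receptor, changed by -2.57 ± 0.20 (adjusted p = 2.04e-07). For the phosphatase gene UBASH3B the change was -2.56 ± 0.13 (adjusted p = 2.35e-09). The nuclear receptor gene NR0B1 had -2.47 ± 0.18 (adjusted p = 1.46e-07), the guanine deaminase gene GDA -2.35 ± 0.21 (adjusted p = 8.26e-07). NTN4, a netrin of basement membranes, had -2.41 ± 0.27 (adjusted p = 1.06e-05). All metastases together held only 29 reads of PRSS12, 44 of MSC-AS1 and 70 of NR0B1, so the size of these changes is imprecise. Over the alternatives the change of PRSS12 ranged from -4.16 to -1.64. Whether counting used strand is not given in the sources used here, so reads of MSC-AS1 and its sense partner may be mixed. The mitochondrial tRNA gene MT-TQ also fell (log2 change -2.23 ± 0.61, adjusted p = 0.0124), but its levels were 0 to 21.9 in metastases against 27.4 to 39 in the monolayer, and the call was lost with a pseudocount of 0.1 and without monolayer replicate 2 (adjusted p = 0.0581 and 0.0507).

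**Figure D2:**
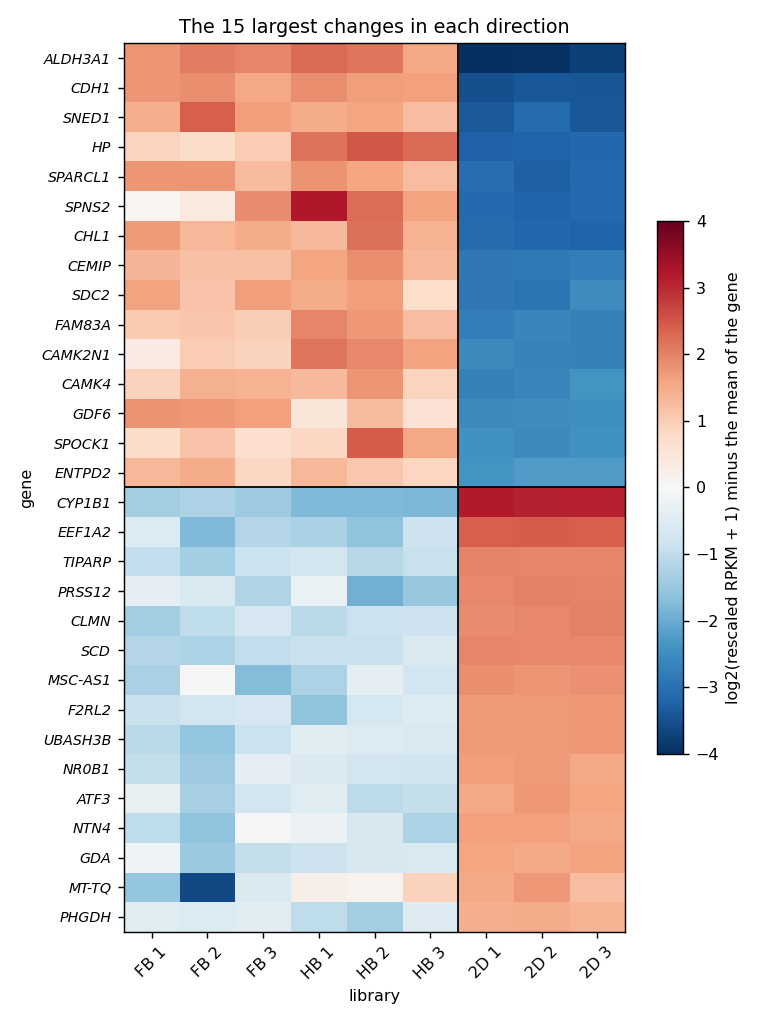
Rows are the 15 genes with the largest increase and the 15 with the largest decrease in metastases, columns the 3 forebrain (FB) and 3 hindbrain (HB) metastases and the 3 monolayer libraries (2D). Colour gives log2(rescaled RPKM + 1) minus the mean of the gene over the 9 libraries: rows change colour at the border between metastases and monolayer, except that MT-TQ is pale red in hindbrain, and HP and CAMK2N1 are deeper red in hindbrain than in forebrain metastases.

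Among genes of epithelial cell contacts more rose than fell, and E-cadherin rose most. Of 35 epithelial junction genes in the table, 28 were tested, and 16 of them rose and 5 fell. Their median was 0.38 beside 0.0066 for all genes tested, of which 21.9% rose and 21.0% fell. JUP, the plakoglobin that links cadherins to keratin filaments, had 219.9, 263 and 227 in forebrain metastases and 246, 236 and 235 in hindbrain metastases, against 67.4, 69.2 and 67.6 in the monolayer (log2 change 1.79 ± 0.06, adjusted p = 7.95e-11). CLDN4, a tight junction claudin, had 5.08 to 8.72 in metastases against 1.14 to 1.36 in the monolayer (log2 change 1.76 ± 0.12, adjusted p = 7.19e-08). EPCAM, an epithelial surface glycoprotein, had 16.7 to 41.5 in metastases against 11.5 to 12.7 in the monolayer (log2 change 1.08 ± 0.15, adjusted p = 4.3e-05). No metastasis overlapped a culture for these 3 genes, and 19.5% of all genes tested were higher without overlap. CLDN1, another claudin, went the other way (23.6 ± 1.61 in metastases against 70.4 ± 0.295 in the monolayer; log2 change -1.54 ± 0.17, adjusted p = 5.46e-06). Of the 6 keratins tested, KRT8 (ENSG00000170421.12, chromosome 12, 52897187 to 52949954 on GRCh38; log2 change 2.77 ± 0.10, adjusted p = 9.09e-11) and KRT18 (log2 change 1.82 ± 0.09, adjusted p = 2.35e-09) rose. KRT80 fell (log2 change -0.82 ± 0.10, adjusted p = 1.67e-05). KRT7, named after its values were seen, fell too and was at 0.453 ± 0.518 in metastases against 1.38 ± 0.111 in the monolayer (log2 change -0.78 ± 0.24, adjusted p = 0.017).

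Among genes usually counted as mesenchymal, too, more rose than fell. Of 19 tested, 11 rose and 3 fell, with a median of 0.59, where 21.9% of all genes tested rose and 21.0% fell. For 1 of the 11, 25% or more of the metastasis reads are expected from mouse. S100A4, a calcium-binding protein of motile cells, had 295, 277 and 229.9 in forebrain metastases and 236, 285 and 192 in hindbrain metastases, against 28.2, 29.3 and 27.9 in the monolayer (log2 change 3.09 ± 0.11, adjusted p = 6.53e-11). TNC, the matrix glycoprotein tenascin C, had 728, 906 and 789.6 in forebrain metastases and 863, 917 and 577 in hindbrain metastases, against 184, 188 and 195 in the monolayer (log2 change 2.05 ± 0.15, adjusted p = 2.66e-07). The transglutaminase gene TGM2, which cross-links matrix proteins, ranged from 543 to 877 in metastases against 118 to 124 in the monolayer (log2 change 2.55 ± 0.12, adjusted p = 1.83e-09). VIM, the intermediate filament of mesenchymal cells, fell (712 ± 89.5 in metastases against 968 ± 22 in the monolayer; log2 change -0.45 ± 0.06, adjusted p = 3.18e-05). CDH2, the gene of N-cadherin, averaged 3.75 ± 1.85 in metastases against 1.44 ± 0.125 in the monolayer and was not called (adjusted p = 0.0656). Without hindbrain metastasis replicate 3, where it was lowest, the gene was called with a log2 change of 1.13 (adjusted p = 6.25e-05).

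Targets of the aryl hydrocarbon receptor (AhR), a transcription factor that opens detoxification genes when it binds planar aromatic ligands, were mostly lower in brain. The list of 8 genes tested also holds the receptor gene AHR and ARNT, that of its partner. Of the 8, 6 fell and 1 rose (median -1.01), and of the 6 targets alone 5 fell and 1 rose. Among all genes tested 21.0% fell and 21.9% rose. Beside CYP1B1 and TIPARP, the AhR repressor gene AHRR had 3.13, 2.56 and 3.19 in forebrain metastases and 1.47, 1.71 and 1.63 in hindbrain metastases, against 10.6, 10.3 and 11.4 in the monolayer (log2 change -1.88 ± 0.13, adjusted p = 1e-07). CYP1A1, the P450 used most often as a readout of AhR and named here after its values were seen, was at 0.0616 ± 0.0681 in metastases against 2.53 ± 0.155 in the monolayer (log2 change -1.73 ± 0.15, adjusted p = 5.66e-07). NQO1, a quinone reductase shared with the NRF2 pathway, fell slightly (2538 ± 129.6 in metastases against 3024 ± 96.2 in the monolayer; log2 change -0.25 ± 0.06, adjusted p = 0.00461), a call lost with quantile normalization (adjusted p = 0.0795). AHR, the receptor itself, averaged 294 ± 23.6 in metastases against 356 ± 22.1 in the monolayer (log2 change -0.28 ± 0.09, adjusted p = 0.0241); this call was lost with quantile normalization, with no filter on low values and without monolayer replicate 1 or 3 (adjusted p = 0.0525, 0.0758, 0.0544 and 0.12). The exception was ALDH3A1, a classic member of the same gene battery.

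AhR with its partner ARNT binds the core letters GCGTG, which read CACGC on the other strand. In the 500 bases before the start site of the GENCODE 44 canonical transcript (GRCh38), searched on both strands, the core occurred in 5 of the 8 list members scanned and in 56.7% of 20043 promoters of this length. Among genes tested it occurred in 62.3% of those that fell at least 2-fold, in 56.3% of those that rose as much and in 65.5% of all scanned, so the share of the list (62.5%) was not above that of all genes tested. A match is a matter of letters and does not show binding. TIPARP had 5 copies, CYP1A1, AHRR and ALDH3A1 a pair each and CYP1B1 a single one. One stretch of each is shown, with the core in capitals and the sequence read along the strand of the gene: chr3:156674323-156674352 (plus strand), chr2:38076401-38076430 (minus), chr15:74725897-74725956 (minus), chr5:321290-321349 (plus) and chr17:19748540-19748599 (minus).
TIPARP: cttcctcacagccGCGTGtagacgcggacc
CYP1B1: caggttgtaccgaGCGTGgttctggggaca
CYP1A1: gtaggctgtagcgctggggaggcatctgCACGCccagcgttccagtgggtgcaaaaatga
AHRR: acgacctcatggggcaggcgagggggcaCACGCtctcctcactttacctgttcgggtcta
ALDH3A1: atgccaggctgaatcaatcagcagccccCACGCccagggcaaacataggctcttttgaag
The gene that rose thus carries the same letters as the 4 that fell.

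Aldehyde dehydrogenases did not rise as a family: 5 of 13 tested rose and 5 fell, where 21.9% of all genes tested rose and 21.0% fell. ALDH2, the mitochondrial enzyme of acetaldehyde, had 8.09 ± 2.17 in metastases against 3.44 ± 0.481 in the monolayer (log2 change 1.00 ± 0.18, adjusted p = 0.000411). ALDH1A3, which makes retinoic acid, had 43.2 ± 6.63 in metastases against 85.9 ± 0.473 in the monolayer (log2 change -0.99 ± 0.10, adjusted p = 3.19e-06). Of 25 tested targets of NRF2, the factor of the oxidative stress response, 15 fell and 2 rose (median -0.25). Haem oxygenase HMOX1 had 52.6, 50.3 and 52.4 in forebrain metastases and 41.8, 38.1 and 47.5 in hindbrain metastases, against 86.7, 91.4 and 84.1 in the monolayer (log2 change -0.89 ± 0.10, adjusted p = 9.25e-06). Both chains of ferritin, which stores iron, fell. FTH1 averaged 2477 ± 147 in metastases against 4136 ± 292 in the monolayer (log2 change -0.74 ± 0.08, adjusted p = 3.04e-06). FTL averaged 1418 ± 169 in metastases against 2305 ± 88.7 in the monolayer (log2 change -0.71 ± 0.09, adjusted p = 1.9e-05). Malic enzyme ME1 fell too (log2 change -0.67 ± 0.08, adjusted p = 1.33e-05). The epoxide hydrolase gene EPHX1 rose, with 70.3 ± 17.9 in metastases against 39.1 ± 0.945 in the monolayer (log2 change 0.79 ± 0.08, adjusted p = 2.89e-06).

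**Figure D3:**
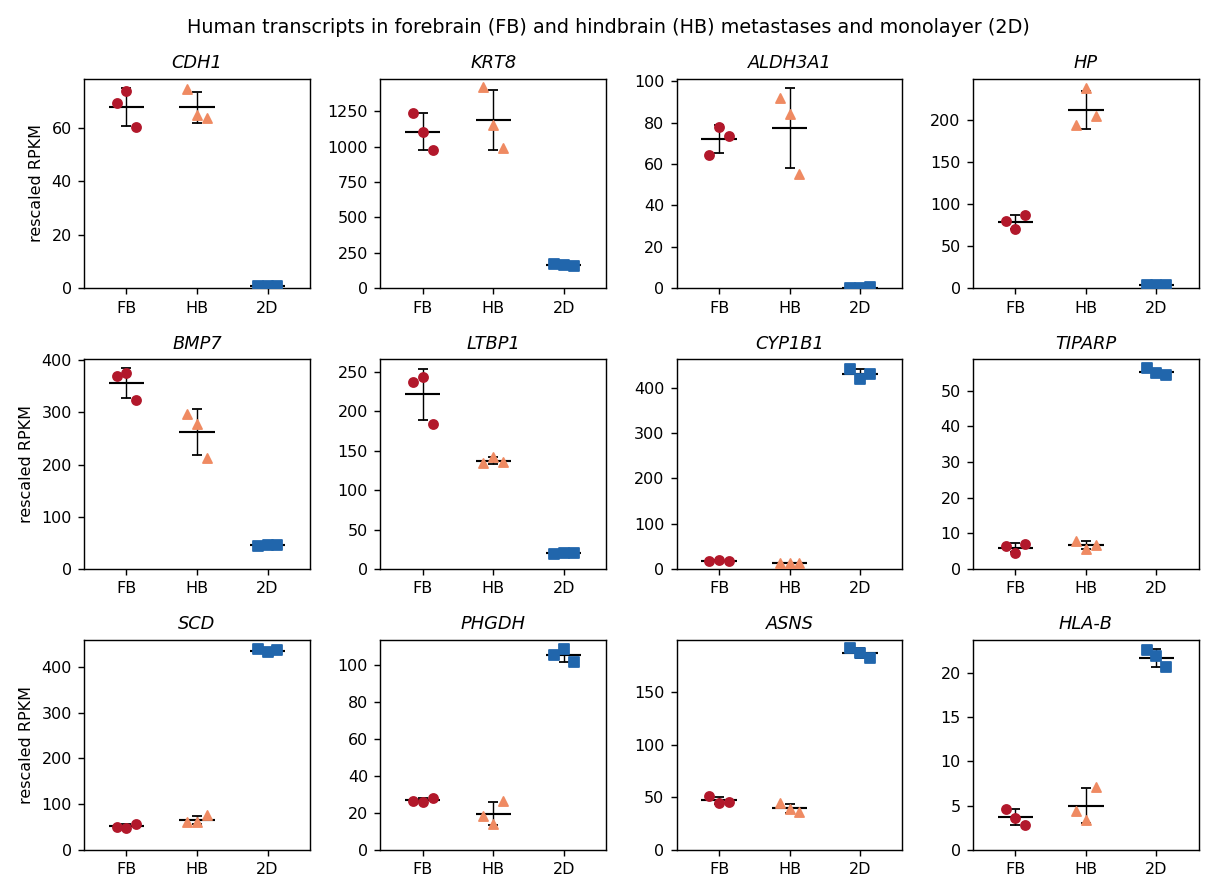
Levels (rescaled RPKM, linear axes from 0) of 12 genes in single libraries: circles are forebrain metastases (FB), triangles hindbrain metastases (HB) and squares the monolayer (2D), with the mean as a line and the SD as an error bar (n = 3 each). CDH1, KRT8, ALDH3A1, HP, BMP7 and LTBP1 are higher in every metastasis than in any culture, and CYP1B1, TIPARP, SCD, PHGDH, ASNS and HLA-B lower.

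Many genes that supply amino acids or charge them onto tRNAs fell in brain. The transcription factor ATF4 turns on such genes when amino acids run short or unfolded proteins accumulate. PHGDH (ENSG00000092621.11, chromosome 1, 119648411 to 119744218 on GRCh38), the first enzyme of serine synthesis, had 26.5, 25.7 and 28.1 in forebrain metastases and 18.2, 13.8 and 26.4 in hindbrain metastases, against 105, 109 and 101 in the monolayer (log2 change -2.18 ± 0.15, adjusted p = 7.83e-08). ASNS (ENSG00000070669.16, chromosome 7, 97851677 to 97872542 on GRCh38), asparagine synthetase, had 50.7, 44.6 and 45.8 in forebrain metastases and 44, 38.4 and 35.6 in hindbrain metastases, against 192, 188 and 183 in the monolayer (log2 change -2.10 ± 0.10, adjusted p = 8.65e-10). Both genes separated the groups by a wide margin, and hindbrain metastases 1 and 2 were lowest for PHGDH. Levels in brain were above those under the skin. PHGDH averaged 23.1 ± 5.73 in brain metastases and 4.63 ± 0.881 in subcutaneous tumours (log2 difference 2.07 ± 0.14, adjusted p = 5.97e-08). ASNS averaged 43.2 ± 5.41 in brain metastases and 20.9 ± 3.34 in subcutaneous tumours (log2 difference 1.01 ± 0.09, adjusted p = 5.84e-07).

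Of 13 genes of serine and folate metabolism, 7 fell and 2 rose (median -0.27), where 21.0% of all genes tested fell and 21.9% rose. The mitochondrial folate enzyme MTHFD2 had 209.8 ± 17.5 in metastases against 439 ± 1.84 in the monolayer (log2 change -1.07 ± 0.09, adjusted p = 5.7e-07). Its neighbour in the pathway, SHMT2, fell as well (log2 change -0.78 ± 0.07, adjusted p = 6.49e-07). So did the glycine-cleaving enzyme GLDC (log2 change -1.25 ± 0.16, adjusted p = 2.74e-05). Of 22 tested genes of the ATF4 stress list, which holds targets and ATF4 itself, 15 fell and 1 rose (median -0.57). CHAC1, which degrades glutathione, had 5.7, 4.27 and 4.29 in forebrain metastases and 4.61, 3.38 and 3.33 in hindbrain metastases, against 19.5, 22.9 and 19.5 in the monolayer (log2 change -2.05 ± 0.14, adjusted p = 6.54e-08). SESN2, a leucine-sensing inhibitor of mTORC1, had 0.702 to 1.95 in metastases against 6.25 to 6.86 in the monolayer (log2 change -1.68 ± 0.15, adjusted p = 1.12e-06). The stress-induced factor gene ATF3 had 0.241 to 1.57 in metastases against 8.14 to 9.4 in the monolayer (log2 change -2.42 ± 0.35, adjusted p = 8.93e-05). Mitochondrial PEP carboxykinase, PCK2, had 21.5 to 35.4 in metastases against 76.6 to 79.6 in the monolayer (log2 change -1.39 ± 0.12, adjusted p = 5.52e-07). None of these 4 genes overlapped between the groups, and 19.1% of all genes tested were lower without overlap. ATF4 itself fell by less (142 ± 13.4 in metastases against 184 ± 6.32 in the monolayer; log2 change -0.38 ± 0.08, adjusted p = 0.00118).

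The C/EBP-ATF response element, with the core TGATGNAA, which reads TTNCATCA on the other strand, is the site through which ATF4 and its C/EBP partners are known to act. It was found within 500 bases upstream of 11 of 23 ATF4 list members (47.8%) and of 4.76% of 20043 promoters. The list was drawn from ATF4 and its known targets, so the first share describes the list. Among the genes that fell at least 2-fold, 19 of 313 scanned (6.07%) had the core. So had 13 of the 398 (3.27%) that rose as much and 3.17% of all scanned genes tested. The 19 include the list members ASNS, CHAC1, SESN2, ATF3 and PCK2, so their share is not independent of the list. The stretches below lie at chr7:97872458-97872487 (minus strand), chr15:40953251-40953280 (plus), chr1:28259196-28259255 (plus), chr1:212608532-212608591 (plus), chr14:24094025-24094054 (plus) and chr12:57520787-57520846 (minus), read along the strand of the gene with the core in capitals.
ASNS: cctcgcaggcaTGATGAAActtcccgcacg
CHAC1: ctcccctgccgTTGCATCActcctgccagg
SESN2: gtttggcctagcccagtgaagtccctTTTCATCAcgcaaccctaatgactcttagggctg
ATF3: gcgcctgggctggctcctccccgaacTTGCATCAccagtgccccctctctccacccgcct
PCK2: agtcctcaaagTTACATCAtgtgcggctgg
DDIT3: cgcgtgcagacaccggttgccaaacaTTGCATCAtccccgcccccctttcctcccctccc
These 6 were picked among members that fell. Of the other 5 members with the core, PYCR1 fell (log2 change -0.26 ± 0.06, adjusted p = 0.00382), NUPR1, JDP2 and VLDLR were not called (adjusted p = 0.382, 0.245 and 0.81), and FGF21 was too low to be tested. DDIT3, the gene of the stress factor CHOP, was added after its values were seen and stood at 6.57 ± 2.76 in metastases against 11.9 ± 0.636 in the monolayer (log2 change -0.85 ± 0.22, adjusted p = 0.00584).

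The enzymes that charge tRNAs in the cytosol moved the same way. Of 20 tested, 13 fell and the other 7 were not called (median -0.32), where 21.0% of all genes tested fell and 21.9% rose. GARS, for glycine, had 258, 236 and 266 in forebrain metastases and 221, 237 and 220.2 in hindbrain metastases, against 531, 538 and 528 in the monolayer (log2 change -1.15 ± 0.07, adjusted p = 8.49e-09). AARS, for alanine, followed (log2 change -0.92 ± 0.08, adjusted p = 9.48e-07). YARS, for tyrosine, fell as well (log2 change -0.90 ± 0.07, adjusted p = 3.02e-07). SARS, for serine (log2 change -0.86 ± 0.05, adjusted p = 1.58e-08), and MARS, for methionine (log2 change -0.85 ± 0.06, adjusted p = 5.55e-08), came next. Their mitochondrial counterparts had no common direction, with 5 higher and 4 lower of 17 and a median of -0.01; IARS2, for instance, fell (log2 change -0.43 ± 0.06, adjusted p = 3.09e-05). Amino acid transporters fell in 11 of 19 cases and rose in 2 (median -0.29). For 1 of the 2 that rose, 25% or more of the metastasis reads are expected from mouse. The glutamate transporter gene SLC1A3 had 36.3, 28 and 17 in forebrain metastases and 28.9, 24.9 and 18.7 in hindbrain metastases, against 109, 107 and 111 in the monolayer (log2 change -2.09 ± 0.18, adjusted p = 6.23e-07). The glutamine transporter gene SLC1A5 had 33.9 to 49.8 in metastases against 111 to 120.0 in the monolayer (log2 change -1.41 ± 0.09, adjusted p = 2.11e-08). The leucine transporter gene SLC7A5 had 46.6 to 61.3 in metastases against 102 to 106 in the monolayer (log2 change -0.95 ± 0.07, adjusted p = 6.59e-08). The cystine transporter gene SLC7A11 averaged 44.3 ± 9.26 in metastases against 51.6 ± 2.45 in the monolayer and was not called (adjusted p = 0.193), except with library weights or without hindbrain metastasis replicate 3 (adjusted p = 0.0319 and 0.00405).

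**Figure D4:**
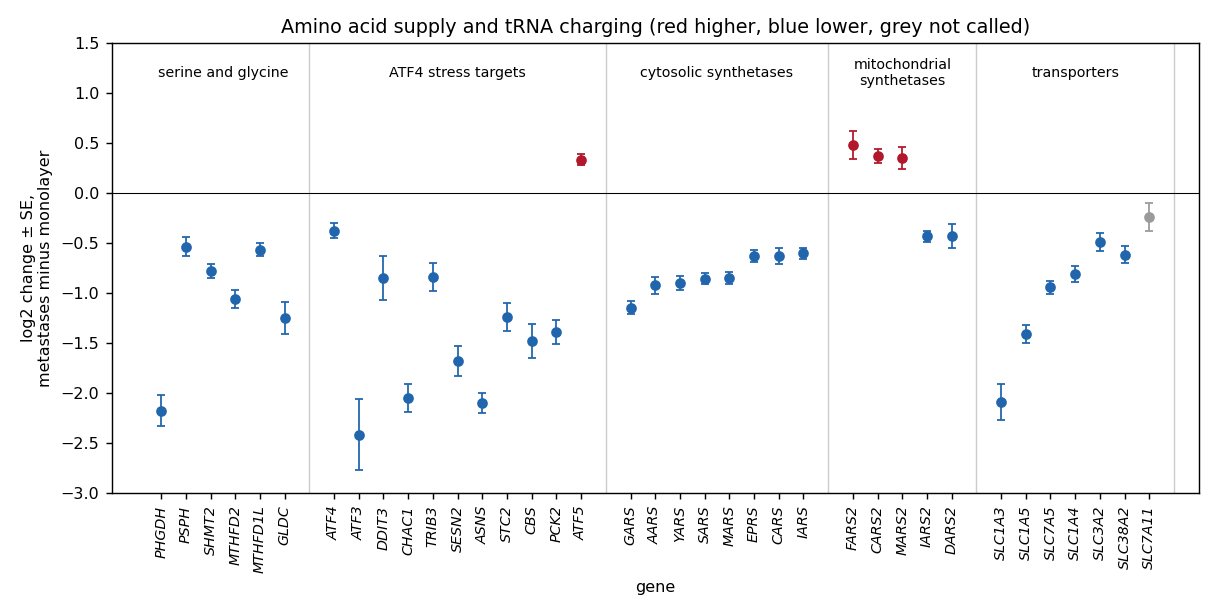
Log2 change, metastases minus monolayer, with its standard error (vertical axis) for chosen genes. They are genes of serine and glycine metabolism, ATF4 and its stress targets, cytosolic and mitochondrial tRNA synthetases and amino acid transporters. Red was called higher, blue lower and grey not called. The cytosolic synthetases shown are all below 0, and mitochondrial ones lie on both sides.

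Most genes of fatty acid and cholesterol synthesis fell in brain. Of 24 genes of fatty acid synthesis and desaturation, 20 fell and the other 4 were not called (median -0.66), against 21.0% of all genes that fell. Beside SCD, the desaturase gene FADS1 had 159, 146 and 165 in forebrain metastases and 185, 192 and 237 in hindbrain metastases, against 535, 539 and 551 in the monolayer (log2 change -1.60 ± 0.08, adjusted p = 1.4e-09). Fatty acid synthase, FASN, had 186, 208 and 173 in forebrain metastases and 161, 157 and 222 in hindbrain metastases, against 458, 474 and 456 in the monolayer (log2 change -1.33 ± 0.10, adjusted p = 1.87e-07). All metastases were below all cultures for these 3 genes, as for 19.1% of all genes tested. The elongase gene ELOVL7 averaged 3.13 ± 1.02 in metastases against 12.2 ± 0.639 in the monolayer (log2 change -1.71 ± 0.18, adjusted p = 4.43e-06). The acyl-CoA ligase gene ACSL3 averaged 185 ± 6.16 in metastases against 368 ± 13.4 in the monolayer (log2 change -0.99 ± 0.06, adjusted p = 1.16e-08). SREBF1, the transcription factor of the pathway, averaged 175 ± 24.9 in metastases against 267 ± 10.5 in the monolayer (log2 change -0.62 ± 0.09, adjusted p = 7.53e-05). SCD was lower in brain than under the skin as well, with 58.3 ± 10.3 in brain metastases and 170.2 ± 24.2 in subcutaneous tumours (log2 difference -1.54 ± 0.09, adjusted p = 1.86e-08).

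Of 24 cholesterol genes, 14 fell and 1 rose (median -0.30), where 21.0% of all genes tested fell and 21.9% rose. The sterol sensor INSIG1 had 10.1, 8.44 and 10.9 in forebrain metastases and 13, 14.4 and 13.3 in hindbrain metastases, against 40.3, 40.5 and 39.8 in the monolayer (log2 change -1.72 ± 0.12, adjusted p = 5.78e-08). All metastases were below all cultures for INSIG1, as for 19.1% of all genes tested. DHCR7, the last step of the pathway, fell (log2 change -1.19 ± 0.10, adjusted p = 3.39e-07). SREBF2, its transcription factor, averaged 86.5 ± 8.19 in metastases against 183 ± 2.68 in the monolayer (log2 change -1.07 ± 0.05, adjusted p = 1.93e-09). STARD4, which carries sterols between membranes, rose (278 ± 30.5 in metastases against 140.2 ± 6.09 in the monolayer; log2 change 0.97 ± 0.10, adjusted p = 2.25e-06). Fatty acid oxidation had no common direction, with 5 higher (22.7%) and 7 lower (31.8%) of 22. HADHA, of the trifunctional protein, fell (399 ± 24.1 in metastases against 596 ± 7.4 in the monolayer, log2 change -0.58 ± 0.05, adjusted p = 9.28e-07).

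Many genes that display antigens or call immune cells fell in brain. Of 17 genes of MHC class I presentation, 10 fell and 2 rose (median -0.46), where 21.0% of all genes tested fell and 21.9% rose. HLA-B (ENSG00000234745.9, chromosome 6, 31353872 to 31367067 on GRCh38) had 4.66, 3.6 and 2.81 in forebrain metastases and 4.43, 3.36 and 7.16 in hindbrain metastases, against 22.7, 21.9 and 20.7 in the monolayer (log2 change -2.14 ± 0.17, adjusted p = 2.16e-07). HLA-C had 0.861 to 2.05 in metastases against 4.86 to 7.34 in the monolayer (log2 change -1.59 ± 0.17, adjusted p = 5.06e-06). The less variable HLA-E had 7.66 to 9.91 in metastases against 15.9 to 16.7 in the monolayer (log2 change -0.87 ± 0.08, adjusted p = 1.07e-06). Reads of these paralogs can be shared, so values of single HLA genes are uncertain. HLA-B was also below its level under the skin, with 4.34 ± 1.54 in brain metastases and 18 ± 1.91 in subcutaneous tumours (log2 difference -1.87 ± 0.15, adjusted p = 3.29e-07). The light chain B2M fell by less (73.1 ± 10.4 in metastases against 88.7 ± 4.17 in the monolayer; log2 change -0.29 ± 0.07, adjusted p = 0.00302). ERAP2, which trims peptides in the endoplasmic reticulum, fell as well (log2 change -0.92 ± 0.10, adjusted p = 5.05e-06).

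Of 30 interferon response genes, 17 fell and 2 rose (median -0.46), where 21.0% of all genes tested fell and 21.9% rose. DDX60, a helicase of RNA sensing, fell (9.85 ± 2.42 in metastases against 21.9 ± 1.76 in the monolayer; log2 change -1.10 ± 0.17, adjusted p = 0.000102). OAS1, an activator of RNase L, rose (6.12 ± 2.02 in metastases against 1.01 ± 0.122 in the monolayer; log2 change 1.78 ± 0.22, adjusted p = 1.67e-05). Of 19 cytokine and NF-kB genes, 10 fell and the other 9 were not called (median -0.70). CCL2, which draws monocytes, had 34.5, 30.7 and 26.4 in forebrain metastases and 73.4, 89 and 62.8 in hindbrain metastases, against 189, 192 and 193 in the monolayer (log2 change -1.98 ± 0.41, adjusted p = 0.00239). CXCL8, which draws neutrophils, had 33.1, 22.7 and 50 in forebrain metastases and 109, 77.1 and 63.8 in hindbrain metastases, against 187, 187 and 186 in the monolayer (log2 change -1.82 ± 0.24, adjusted p = 5.94e-05). Both were lowest in forebrain metastases. IL6, an inflammatory cytokine, was at 6.21 to 11.1 in metastases against 31.3 to 32.1 in the monolayer (log2 change -1.78 ± 0.10, adjusted p = 1.29e-08). RELB, a subunit of NF-kB, was at 15 to 27.5 in metastases against 50.5 to 54.4 in the monolayer (log2 change -1.30 ± 0.27, adjusted p = 0.00192).

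Secreted and surface proteins of mucosal epithelia went in both directions. Both mucin genes tested rose. MUC1 averaged 113 ± 25 in metastases against 31.9 ± 1.46 in the monolayer (log2 change 1.77 ± 0.22, adjusted p = 3.2e-05). MUC16 averaged 8.92 ± 3.83 in metastases against 0.608 ± 0.22 in the monolayer (log2 change 2.54 ± 0.27, adjusted p = 6.34e-06). Of 8 mucosal and acute phase genes tested, 4 rose and 2 fell, where 21.9% of all genes tested rose and 21.0% fell. The calgranulin gene S100A9 had 124, 81.3 and 125 in forebrain metastases and 423, 353 and 314 in hindbrain metastases, against 62.6, 66.4 and 58.9 in the monolayer (log2 change 1.64 ± 0.15, adjusted p = 1.52e-06), with the hindbrain values far above those of forebrain. Within the CEACAM family of adhesion proteins, CEACAM6 had 2.34, 0.884 and 2.36 in forebrain metastases and 15.7, 7.01 and 9.48 in hindbrain metastases, against 0.139, 0.0795 and 0.0389 in the monolayer (log2 change 2.36 ± 0.24, adjusted p = 2.71e-06). CEACAM1 had 2.39, 1.61 and 1.09 in forebrain metastases and 6.03, 5.15 and 6.13 in hindbrain metastases, against 15.9, 14.5 and 14.6 in the monolayer (log2 change -1.92 ± 0.12, adjusted p = 3.07e-08). One paralog was thus above the cultures in every metastasis and the other below them, and both were higher in hindbrain than in forebrain. Without overlap, 19.5% of all genes tested were higher and 19.1% lower. Reads of paralogs this alike may be shared. SLPI, an inhibitor of leukocyte elastase, had 40.3, 34.7 and 37.6 in forebrain metastases and 81.3, 62.5 and 86.8 in hindbrain metastases, against 185, 205 and 189.8 in the monolayer (log2 change -1.83 ± 0.13, adjusted p = 7.13e-08).

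Genes of the matrix around the cells and on their surface went in both directions, with large increases among proteoglycans. Of 23 genes of proteoglycans and hyaluronan, 11 rose and 6 fell (median 0.22), where 21.9% of all genes tested rose and 21.0% fell. The hyaluronan synthase gene HAS2 had 21.9, 24.2 and 20.3 in forebrain metastases and 20.9, 22.1 and 29.5 in hindbrain metastases, against 2.99, 3.06 and 2.74 in the monolayer (log2 change 2.61 ± 0.11, adjusted p = 4.41e-10). The hyaluronan-degrading CEMIP had 20.9, 18.4 and 18.3 in forebrain metastases and 24.3, 29.8 and 20.7 in hindbrain metastases, against 0.176, 0.199 and 0.252 in the monolayer. CD44, the main hyaluronan receptor, named after its values were seen, fell and was at 76.8 ± 19 in metastases against 306 ± 9.55 in the monolayer (log2 change -2.02 ± 0.11, adjusted p = 3.87e-09). The syndecan gene SDC1 had 340.4, 310.4 and 342 in forebrain metastases and 483, 376 and 311 in hindbrain metastases, against 83.6, 81.2 and 82.2 in the monolayer (log2 change 2.10 ± 0.11, adjusted p = 3.87e-09). SDC2, another syndecan gene, had 58.2, 42.3 and 61 in forebrain metastases and 53.8, 60.4 and 30.4 in hindbrain metastases, against 1.69, 1.56 and 2.45 in the monolayer. SPOCK1 had 67.8, 90 and 64.8 in forebrain metastases and 71.8, 218 and 119.6 in hindbrain metastases, against 6.58, 6.04 and 6.71 in the monolayer. Hindbrain metastasis 2 was well above the rest for SPOCK1, and every other metastasis still exceeded the cultures.

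Of 19 collagen genes, 9 rose and 5 fell (median 0.01), where 21.9% of all genes tested rose and 21.0% fell. For 1 of the 9, 25% or more of the metastasis reads are expected from mouse. COL1A1, of fibrillar collagen I, had 82.7, 96.9 and 77.1 in forebrain metastases and 98.5, 90.4 and 122 in hindbrain metastases, against 22.5, 21.1 and 22.2 in the monolayer (log2 change 2.04 ± 0.10, adjusted p = 1.24e-09). COL5A1, a partner of collagen I in fibrils, had 10.7 to 24.5 in metastases against 4.63 to 4.75 in the monolayer (log2 change 1.70 ± 0.26, adjusted p = 0.000196). COL4A2, of basement membranes, had 7.92 to 26.6 in metastases against 35.6 to 40 in the monolayer and fell (log2 change -1.33 ± 0.25, adjusted p = 0.000961). Fibroblasts also make fibrillar collagen. All 3 tested markers of the fibroblast and blood list rose, but these are COL1A1, COL1A2 and COL3A1, which the collagen count already holds. DCN, LUM, PDGFRA and HBB of that list were too low to be tested. The list sum was 127 to 197 in metastases and 62 to 65.2 in the monolayer. Of the tested markers, 0 had 10% or more of their reads expected from mouse, by the rate of brain without tumour. That rate understates reads of mouse genes that are higher around a tumour. Endothelial and mural markers rose in 3 of 3 tested cases as well (PECAM1, CDH5 and ACTA2), with a list sum of 17.6 to 22 in metastases and 10.8 to 11.3 in the monolayer. The part of both lists in the collagen and other matrix changes was not tested. Integrins rose in 3 and fell in 6 of 13 cases. ITGA1, a collagen receptor subunit, had 13.3 to 36.5 in metastases against 2.66 to 3.03 in the monolayer (log2 change 2.61 ± 0.24, adjusted p = 1.5e-06). The laminin receptor subunit ITGA3 had 430.2 to 530.0 in metastases against 291 to 305 in the monolayer (log2 change 0.68 ± 0.06, adjusted p = 3.83e-07). ITGA5, of the fibronectin receptor, had 32.5 to 49.5 in metastases against 119 to 125 in the monolayer (log2 change -1.52 ± 0.08, adjusted p = 3.59e-09).

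Targets of YAP fell more often than they rose. Of 16 tested targets of YAP, the coactivator that enters the nucleus in spread cells, 9 fell and 2 rose (median -0.58). The 2 that rose were ANKRD1 (log2 change 0.43) and ARHGEF17 (log2 change 0.86). The list also counts TEAD1 and TEAD4, and neither was called. Of all genes tested, 21.0% fell and 21.9% rose. CYR61, a matricellular protein of the CCN family, had 57.4 to 77.5 in metastases against 259 to 264 in the monolayer (log2 change -1.97 ± 0.19, adjusted p = 4.05e-06). CTGF, of the same family, had 187 to 255 in metastases against 605 to 622 in the monolayer (log2 change -1.47 ± 0.13, adjusted p = 6.38e-07). THBS1, thrombospondin-1, had 839, 662 and 764 in forebrain metastases and 571, 627 and 465 in hindbrain metastases, against 1069, 1109.6 and 1132 in the monolayer (log2 change -0.78 ± 0.13, adjusted p = 0.000206). It was far above its level under the skin, with 655 ± 134 in brain metastases and 24.9 ± 4.88 in subcutaneous tumours (log2 difference 4.66 ± 0.12, adjusted p = 3.67e-12). Of 17 tested genes of the actin cytoskeleton and its factor SRF, 4 rose and 7 fell (median 0.06). ACTN1, an actin cross-linker of focal adhesions, fell (508 ± 15.7 in metastases against 971 ± 19.6 in the monolayer; log2 change -0.94 ± 0.04, adjusted p = 1.15e-09). Among secreted proteases and their inhibitors, cathepsin CTSL fell (235 ± 51.2 in metastases against 663 ± 6.98 in the monolayer; log2 change -1.52 ± 0.12, adjusted p = 3e-07). Of 15 tested genes reported as mediators of brain metastasis, 5 rose and 4 fell (median -0.12). Neuroserpin, SERPINI1, rose (22.7 to 52.9 in metastases against 8.14 to 8.58 in the monolayer; log2 change 2.11 ± 0.21, adjusted p = 3.38e-06). L1CAM, an adhesion protein reported with neuroserpin in brain metastasis, had 60.5 to 82.5 in metastases against 30.8 to 31.4 in the monolayer (log2 change 1.12 ± 0.09, adjusted p = 2.73e-07).

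Several ligands and inhibitors of signalling between cells rose. Of 35 genes of the BMP and TGF-beta family, 16 rose and 9 fell (median 0.18), where 21.9% of all genes tested rose and 21.0% fell. BMP7 (ENSG00000101144.12, chromosome 20, 57168753 to 57266641 on GRCh38) had 369.7, 376 and 323 in forebrain metastases and 296, 279 and 212 in hindbrain metastases, against 44.4, 45.4 and 45.5 in the monolayer (log2 change 2.73 ± 0.11, adjusted p = 2.83e-10). BMP4 had 81.4, 101 and 78.4 in forebrain metastases and 56.5, 69.8 and 59.8 in hindbrain metastases, against 10.1, 11.2 and 10.9 in the monolayer (log2 change 2.66 ± 0.10, adjusted p = 1.61e-10). LTBP1 (ENSG00000049323.15, chromosome 2, 32946953 to 33399509 on GRCh38), which holds latent TGF-beta in the matrix, had 237, 244 and 184 in forebrain metastases and 134, 142 and 136 in hindbrain metastases, against 19, 19.7 and 20 in the monolayer (log2 change 3.09 ± 0.09, adjusted p = 1.52e-11). Every metastasis was well above the cultures, and 19.5% of all genes tested were higher without overlap. LTBP1 had 179.6 ± 50.7 in brain metastases and 19 ± 1.94 in subcutaneous tumours (log2 difference 3.13 ± 0.08, adjusted p = 4.43e-12). The BMP antagonist CHRD fell (2.11 ± 0.376 in metastases against 6.8 ± 0.0901 in the monolayer; log2 change -1.34 ± 0.11, adjusted p = 4.68e-07).

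Of 32 Wnt genes, 18 rose and 10 fell (median 0.30), where 21.9% of all genes tested rose and 21.0% fell. Inhibitors that the pathway itself induces were among those that rose. AXIN2 had 56.7, 66.9 and 47.3 in forebrain metastases and 24.7, 28.3 and 21.8 in hindbrain metastases, against 4.82, 5.21 and 5.3 in the monolayer (log2 change 2.66 ± 0.11, adjusted p = 3.56e-10). NOTUM had 27.8 to 64 in metastases against 11.8 to 12 in the monolayer (log2 change 1.79 ± 0.11, adjusted p = 2.98e-08). DKK1 had 123 to 189 in metastases against 23.5 to 27.4 in the monolayer (log2 change 2.46 ± 0.12, adjusted p = 2.55e-09). In the Notch family 5 of 16 rose and 5 fell. The ligand JAG1 had 23.8, 31.4 and 29.6 in forebrain metastases and 35.4, 38.8 and 21.2 in hindbrain metastases, against 2.02, 2.06 and 1.81 in the monolayer (log2 change 3.36 ± 0.16, adjusted p = 1.24e-09). The receptor NOTCH3 had 149 to 288 in metastases against 83.1 to 83.3 in the monolayer (log2 change 1.28 ± 0.08, adjusted p = 1.78e-08). The receptor NOTCH1 fell (7.58 ± 1.4 in metastases against 18.1 ± 1.84 in the monolayer; log2 change -1.17 ± 0.12, adjusted p = 4.45e-06). Of 28 receptor tyrosine kinase genes and ligands, 11 rose and 12 fell. The growth factor gene FGF9 rose (11.7 to 31.2 in metastases against 2.7 to 3.41 in the monolayer; log2 change 2.40 ± 0.18, adjusted p = 1.46e-07). AREG, a ligand of the EGF receptor, rose as well (39.7 to 127 in metastases against 20.8 to 21.4 in the monolayer; log2 change 1.55 ± 0.27, adjusted p = 0.000588). The receptor gene ERBB3 fell (10.8 ± 5.37 in metastases against 24.5 ± 1.08 in the monolayer; log2 change -1.23 ± 0.28, adjusted p = 0.00296). Of 10 genes of the sphingosine-1-phosphate pathway, 2 rose and 6 fell. The exporter gene SPNS2 had 11.8, 15.1 and 44.9 in forebrain metastases and 112, 56.6 and 36.4 in hindbrain metastases, against 0.406, 0.342 and 0.418 in the monolayer. SPHK2, a kinase that makes the lipid, averaged 8.97 ± 1.12 in metastases against 5.12 ± 0.323 in the monolayer (log2 change 0.70 ± 0.10, adjusted p = 5.18e-05).

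**Figure D5:**
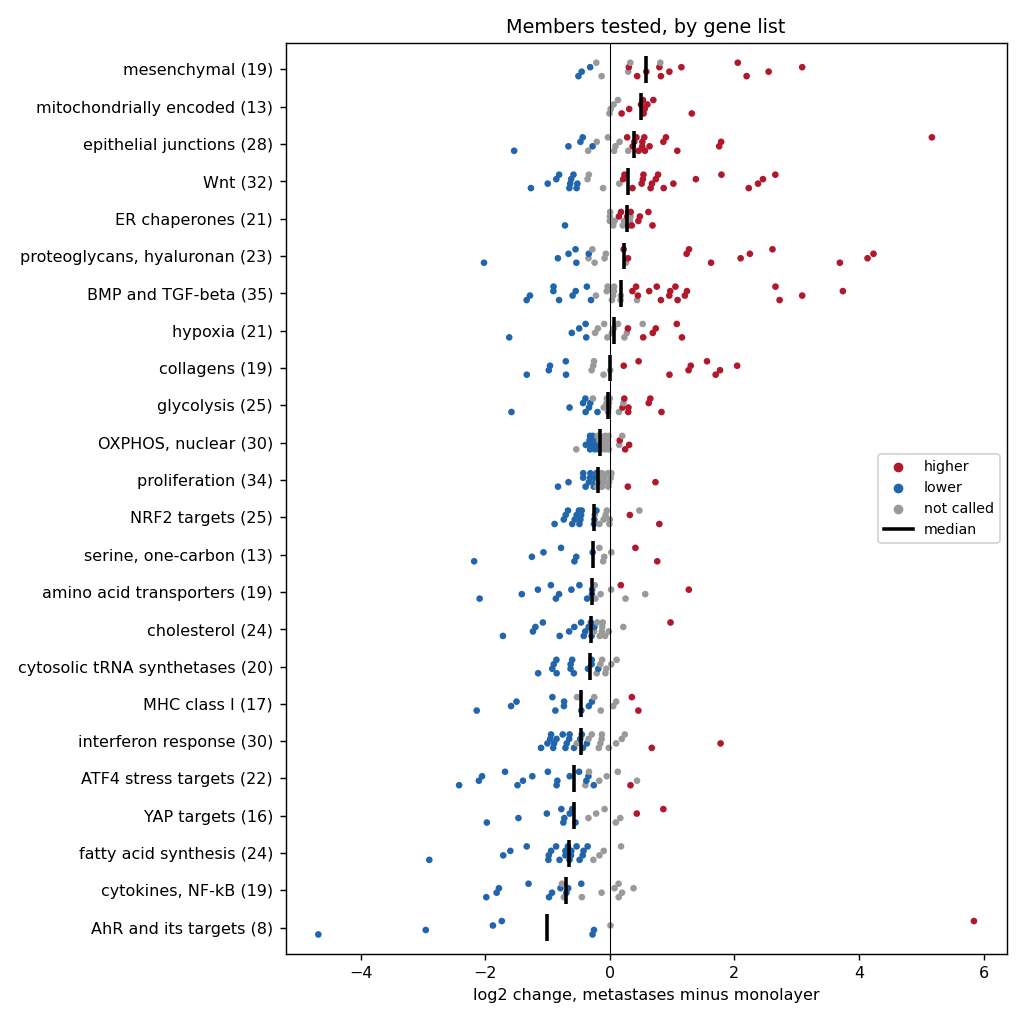
Points are the tested members of 24 gene lists, with the log2 change, metastases minus monolayer, on the horizontal axis and the number tested in brackets; red was called higher, blue lower and grey not called, and the black line is the median of the list. Lists run from mesenchymal genes at the top (median 0.59) to AhR and its targets at the bottom (-1.01), where ALDH3A1 lies alone at the far right.

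Genes of neurons and axon guidance changed in both directions. Of 22 neuronal genes, 11 rose and 4 fell; 25% or more of the metastasis reads are expected from mouse for 6 of the 22, among them 4 of the 11 that rose. Of 37 axon guidance genes, 12 rose and 11 fell, none of them with such a share. Of all genes tested 42.9% were called, and of protein-coding genes 47.6%. The axon receptor PLXNA2 had 19.6, 24.1 and 30.7 in forebrain metastases and 29.9, 36.1 and 24.8 in hindbrain metastases, against 1.67, 2.24 and 1.5 in the monolayer (log2 change 3.33 ± 0.17, adjusted p = 2.35e-09). NAV3, a neuron navigator, had 12.3 to 22.6 in metastases against 71.2 to 78.2 in the monolayer (log2 change -2.02 ± 0.16, adjusted p = 2.33e-07). VSNL1, a neuronal calcium sensor, had 33.8, 48.5 and 47.6 in forebrain metastases and 45, 32.9 and 29.8 in hindbrain metastases, against 3.42, 3.52 and 3.65 in the monolayer (log2 change 3.14 ± 0.14, adjusted p = 4.75e-10), with 14.9% of its metastasis reads expected from mouse. NRXN2, a presynaptic adhesion gene, had 18.3 to 44.6 in metastases against 0.261 to 0.427 in the monolayer (log2 change 4.57 ± 0.24, adjusted p = 3.04e-09), but 100% of these reads are expected from mouse RNA. Of the host neuron markers that were tested, 2 rose and 2 fell of 5, and 2 of the 5 had 25% or more of reads expected from mouse. All 8 measured members of that list, tested or not, summed to 16.3 to 25.4 in metastases and 21.3 to 22.1 in the monolayer. Astrocyte markers fell in 3 of 3 tested cases, and SLC1A3 is on that list. Its 6 measured members summed to 35.8 to 56 in metastases and 142 to 146 in the monolayer. The part of both lists in the neuronal changes was not tested.

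Genes of energy metabolism changed in both directions. Of 13 protein-coding genes of the mitochondrial genome, 9 rose and the other 4 were not called (median 0.50). Among all genes tested 21.9% rose and 21.0% fell. MT-ND3, of complex I, had 5652, 6253 and 6381 in forebrain metastases and 6534, 7297 and 6999.8 in hindbrain metastases, against 2572, 2669 and 2588 in the monolayer (log2 change 1.32 ± 0.08, adjusted p = 1.31e-08). MT-CYB, of complex III, averaged 4436 ± 606 in metastases against 2712 ± 42.3 in the monolayer (log2 change 0.70 ± 0.09, adjusted p = 3.77e-05). The call of MT-CO1 (log2 change 0.19 ± 0.06, adjusted p = 0.0239) was lost with median-of-ratios scaling, with no filter on low values and without any one monolayer library (adjusted p = 0.0527 to 0.0802). Nuclear genes of the same complexes rose in 3 and fell in 12 of 30 cases (median -0.16). Glycolysis had 7 higher and 8 lower of 25. Pyruvate kinase, PKM, rose (1862 ± 130.0 in metastases against 1184 ± 31.2 in the monolayer; log2 change 0.65 ± 0.06, adjusted p = 1.05e-06). Lactate dehydrogenase, LDHA, rose too (log2 change 0.62 ± 0.06, adjusted p = 2.2e-06). The aldolase gene ALDOC fell (log2 change -1.58 ± 0.12, adjusted p = 1.9e-07). The glucose transporter gene SLC2A1 averaged 228 ± 56.1 in metastases against 231 ± 6.81 in the monolayer (adjusted p = 0.627). Hypoxia-induced genes rose in 6 and fell in 5 of 21 cases, a called share near the 47.6% of all protein-coding genes. HIF1A, the hypoxia-inducible factor itself, averaged 456 ± 68.3 in metastases against 279.9 ± 9.03 in the monolayer (log2 change 0.69 ± 0.10, adjusted p = 9.82e-05). ANGPTL4, an inhibitor of lipoprotein lipase, had a log2 change of 1.08 ± 0.12 (adjusted p = 4.89e-06). ADM, the vasodilator adrenomedullin, had a log2 change of -1.62 ± 0.23 (adjusted p = 7.02e-05).

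Of 34 proliferation genes, 17 fell and 2 rose, with a median of -0.19, where 21.0% of all genes tested fell and 21.9% rose. The replication licensing factor CDT1 fell (54.8 ± 5.86 in metastases against 97.9 ± 2.73 in the monolayer; log2 change -0.83 ± 0.08, adjusted p = 2.04e-06). CDC20, an activator of anaphase, fell (91.6 ± 4.75 in metastases against 146 ± 1.86 in the monolayer; log2 change -0.66 ± 0.07, adjusted p = 2.39e-06). The motor protein CENPE of the kinetochore rose (41.5 ± 7.22 in metastases against 24.5 ± 3.51 in the monolayer; log2 change 0.73 ± 0.13, adjusted p = 0.000436). MKI67, a marker of cycling cells, averaged 69.9 ± 9.87 in metastases against 80.5 ± 4.23 in the monolayer (adjusted p = 0.102). It was called as lower with voom, with library weights, with both regions averaged per number and without hindbrain metastasis replicate 3 (adjusted p = 0.00792 to 0.0495). Of the cell cycle inhibitors and p53 targets, 6 of 17 rose and 4 fell. The death receptor gene FAS had 67.1 ± 9.4 in metastases against 29.5 ± 1.55 in the monolayer (log2 change 1.15 ± 0.14, adjusted p = 1.8e-05). CDKN2B, an inhibitor of cyclin D kinases, had a log2 change of -1.08 ± 0.10 (adjusted p = 1.21e-06). CDKN1A, the p21 gene, averaged 21.5 ± 6.66 in metastases against 18.9 ± 1.21 in the monolayer (adjusted p = 0.549). The growth genes MYC (67.7 ± 4.23 in metastases against 63.7 ± 0.465 in the monolayer; adjusted p = 0.487) and FOS (12.3 ± 4.57 in metastases against 13.8 ± 0.713 in the monolayer; adjusted p = 0.717) were not called.

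Among protein folding genes more rose than fell, while 21.9% of all genes tested rose and 21.0% fell. Of 21 chaperones and related genes of the endoplasmic reticulum, 11 rose and 1 fell (median 0.28). MANF had 67.2 ± 9.76 in metastases against 47.4 ± 1.66 in the monolayer (log2 change 0.48 ± 0.10, adjusted p = 0.000991). The master chaperone HSPA5 had 166 ± 21.8 in metastases against 134 ± 2.32 in the monolayer (log2 change 0.30 ± 0.10, adjusted p = 0.0241), a call lost without the filter on low values and without forebrain metastasis replicate 1 or any one monolayer replicate (adjusted p = 0.0503 to 0.082). Of 16 cytosolic heat shock genes, 5 rose and 1 fell, with HSPH1 at 97.6 ± 21.1 in metastases against 50.5 ± 0.705 in the monolayer (log2 change 0.91 ± 0.15, adjusted p = 0.00023). Of 17 circadian genes, 7 rose and 4 fell, and the repressor PER2 had 37.1, 30.2 and 23.4 in forebrain metastases and 32.7, 21.3 and 21.3 in hindbrain metastases, against 10.8, 9.72 and 10.4 in the monolayer (log2 change 1.31 ± 0.15, adjusted p = 8.29e-06). No source used here states the hour at which tissue and cultures were taken.

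Between forebrain and hindbrain metastases 481 of 14557 genes (3.3%) differed. POSTN, the matricellular periostin, was higher in metastases than in the monolayer (log2 change 2.20 ± 0.15, adjusted p = 5.55e-08) and had 16.3, 25.4 and 16.5 in forebrain metastases and 4.07, 3.28 and 2.97 in hindbrain metastases (difference 2.18 ± 0.17, adjusted p = 2.19e-05). The fibronectin gene FN1 had 77.2, 116 and 87.6 in forebrain metastases and 43.5, 40.8 and 42.5 in hindbrain metastases (1.11 ± 0.18, adjusted p = 0.00592), and AXIN2 differed by 1.15 ± 0.13, adjusted p = 0.000537. Opposite to these, HP (-1.41 ± 0.17, adjusted p = 0.000825) and S100A9 (-1.73 ± 0.17, adjusted p = 0.000271) were lower in forebrain than in hindbrain. The call of FN1 was lost with library weights and with voom, and those of POSTN, AXIN2, HP and S100A9 held under every alternative run.

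Tumours under the skin share the host species but not the organ, and 7276 genes (50.0%) differed between brain and skin. ALDH3A1 averaged 74.6 ± 13.3 in brain metastases and 15.5 ± 5 in subcutaneous tumours (log2 difference 2.22 ± 0.17, adjusted p = 2.42e-07). CDH1 averaged 67.6 ± 5.81 in brain metastases and 12.7 ± 3.94 in subcutaneous tumours (log2 difference 2.36 ± 0.14, adjusted p = 1.23e-08). KRT8 averaged 1147 ± 165 in brain metastases and 504 ± 44.1 in subcutaneous tumours (log2 difference 1.18 ± 0.09, adjusted p = 2.21e-07), and CEMIP 22 ± 4.38 in brain metastases and 3.48 ± 1.44 in subcutaneous tumours (log2 difference 2.39 ± 0.16, adjusted p = 5.24e-08). Under the skin all 4 genes had means below those in brain and above those in the monolayer. CYP1B1 averaged 16 ± 2.9 in brain metastases and 22.5 ± 3.72 in subcutaneous tumours (log2 difference -0.47 ± 0.08, adjusted p = 0.000415), so that the tumours under the skin were slightly above brain and far below the cultures.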

How the data were processed

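RNA-seq of human and mouse RNA was deposited by the authors as RPKM per gene, with the human genes kept apart. Builds hg38, mm10, GRCh38 and GRCm38 are named per the submitters' processing notes, and which aligner and counter were used is not given in the sources used here. RPKM values were rescaled to a sum of 1000000 per library. Whole reads were recovered from the RPKM steps (tolerance 0.02) and gave depths, the mouse share and an alternative count fit.

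Human genes with a value of at least 1 in 3 libraries (14557) were tested with limma 3.58.1 (R 4.3.3, trend and robust) on log2(value + 1), in 1 fit of the 13 libraries with human cells. P-values were adjusted by the Benjamini-Hochberg method over all genes tested, with a threshold of 0.05. No source used here says whether replicates were separate animals or cultures, so p-values measure the spread between these samples, which may be technical. The fit was also run on simulated data with the same spread for every gene, so that check does not give its error rate in these data.

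Genes named were the 15 largest changes in each direction (higher group with a mean of 5 or more, no overlap, under 10% of reads expected from mouse), up to 5 called genes per list and a set of fixed genes. Counts over gene lists include some genes that are not reported here. Groups, lists and named genes were chosen with earlier results of these data known. Promoters are the 500 bases before the start of the GENCODE 44 canonical transcript on GRCh38. Other tools were Python 3.11.15, NumPy 2.4.6, pandas 2.3.3, matplotlib 3.10.9 and the R package data.table (version 1.17.8). Alternatives covered scaling, pseudocount, filter, library weights, voom on recovered reads, the replicate block and single libraries left out.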

Additional observations from a re-analysis of the deposited data

Results flagged for a closer look

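Of the genes named, 27 differed between the brain regions by a limma test of the difference itself, adjusted over all genes tested. Higher in forebrain than in hindbrain metastases, as a log2 difference of forebrain minus hindbrain, were VIM (0.30), FN1 (1.11), POSTN (2.18), CYP1B1 (0.42), EPHX1 (0.60), SLC2A1 (0.58), BMP4 (0.48), GDF6 (0.95), LTBP1 (0.68), AXIN2 (1.15), NOTUM (0.70), NOTCH3 (0.62) and SOX2 (1.07). Lower in forebrain than in hindbrain were FADS1 (-0.38), SREBF2 (-0.25), B2M (-0.35), CXCL8 (-1.25), SLPI (-1.004), CEACAM1 (-1.35), CEACAM6 (-2.02), S100A9 (-1.73), HP (-1.41), CD44 (-0.56), ITGA5 (-0.43), FAM83A (-0.61), CAMK2N1 (-1.13) and UBASH3B (-0.63). Of these, 10 were called under every alternative run: POSTN, EPHX1, CEACAM1, CEACAM6, S100A9, HP, LTBP1, AXIN2, NOTCH3 and CAMK2N1. Each region holds 3 libraries, and CD44 and SOX2 were named after their values were seen.

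Single metastases stood apart from the other 5 for 4 of the 169 genes examined. Chance flags about 1 in 20 groups, so these flags were no more frequent than chance gives. CDH2 had 0.355 in hindbrain metastasis replicate 3, against 3.47 to 5.3 in the others. SNED1 had 97.5 in forebrain metastasis replicate 2, against 43 to 58.7. SPOCK1 had 218 in hindbrain metastasis replicate 2, against 64.8 to 119.6, and DKK1 had 189 there, against 123 to 147.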

How the results depend on the processing

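Of 169 genes named with a value against the monolayer, 158 were called. Under the 23 alternatives, 152 of those were called in the same direction wherever they could be run, and 147 of the 152 were run under every one. CYP1A1, CDH5, PECAM1 and SOX2 fell out under the stricter filter, CYP1A1 also without each monolayer library and CDH5 with the regions averaged. NRXN2 fell out where genes with reads expected from mouse were left out or those reads subtracted. The exceptions NQO1, AHR, FOXA1, MT-CO1, HSPA5 and MT-TQ are described with their values, and CDH2, SLC7A11 and MKI67 were called under some alternatives only. SLC2A1, not called, changed sign without forebrain metastasis replicate 1 (log2 change 0.0008), with a range of -0.0833 to 0.0008 over libraries left out. Likewise not called, NAPSA changed sign without forebrain metastasis replicate 1 or hindbrain metastasis replicate 3 (-0.0480 and -0.0139; range -0.0480 to 0.1376) and VLDLR without hindbrain metastasis replicate 3 (range -0.1445 to 0.0606). The 6247 calls ranged from 4712 to 6578 over libraries left out and from 5347 to 7600 over the other alternatives. Of the genes the naming rule chose, 31 differed between the regions, 15 with no filter, 12 with library weights, 13 with voom and 16 to 41 with single libraries left out (16 without forebrain metastasis replicate 2); the cause was not tested. With the replicate block there were 5912 calls. The numbers were not taken as pairs, since the labels give no shared source and correlations of deviations between libraries of the same number were under 0.1 for 8 of 9 pairs (0.04 to 0.07 between the regions, where all 3 lay above the -0.06 to 0.01 of different numbers, -0.02 to 0.08 between forebrain and monolayer and -0.14 to 0.11 between hindbrain and monolayer). Metastases held fewer human reads than the cultures, which limits genes with low levels, and every value is for 1 cell line.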
